A study of Glycine max with 12 samples.

Results

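The desiccating seed coat of soybean (Glycine max) was compared with both parts of the embryo it encloses, the cotyledon and the embryo axis, by RNA-Seq of seed of 200–300 mg fresh weight. Each tissue was 1 library, so the comparison rests on 3 of the 12 libraries of the series, which was deposited without replicates. No p-value can be given for any difference, and the intervals printed cover the counting of hits only. All 3 tissues came from Williams, a cultivar of genotype i^i with a yellow seed coat and a black hilum. It was grown in the greenhouse without a treatment. The seed was yellow and losing water when it was dissected by hand into coat, cotyledon and axis. The labels do not say how many seeds or plants were pooled, or whether the 3 tissues came from the same seeds. The other libraries were used only to follow the models found here: seed coat and cotyledon of 5–6 mg and of mature dry Williams seed, the seed coat of 25–50 mg seed of Williams and of W55 (a line with the i mutation), the embryo axis of 300–400 mg desiccating Williams seed, roots of Williams seedlings of 5 days and furled trifoliates of adult Williams plants.

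A gene model was counted as coat-high when its level in the coat was at least 4-fold above both the cotyledon and the axis, and as coat-low when it was at least 4-fold below both. Levels are RPKM, hits scaled by transcript length and by the alignments of the library. The fold was taken on the log2(RPKM + 0.1) scale, where 4-fold is a difference of 2, and it understates the change of low models. Of the 56044 models in the table, 28406 had at least 1 RPKM in at least 1 of the 3 tissues and are called measured. A model that passed this minimum only through the tissue where it was high had to differ, so the counts describe the libraries and carry no test. In these whole tissues, fewer cells of a kind and less RNA per cell cannot be told apart.

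The seed coat is maternal tissue that grows from the integuments of the ovule, while cotyledon and axis are the new generation. In young legume seed the coat unloads sucrose and amino acids from the phloem for the embryo. Later its palisade and hourglass cells lay down thick walls, and in the dry seed it is a dead shell that controls the entry of water and meets microbes before the embryo does. The embryo follows another course, filling with storage protein and oil and then making late embryogenesis abundant (LEA) proteins and small heat shock proteins that protect it through drying.

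The coat stood apart from the embryo mostly by models that were high in it. Coat-high models numbered 4291 (15.1% of those measured) and coat-low models 488 (1.72%), so that 89.8% of the called models were coat-high. The coat was 4-fold above the cotyledon, whatever the axis, at 5378 models (18.9%) and above the axis, whatever the cotyledon, at 5089 (17.9%). Read in the same way, it was 4-fold below the cotyledon at 1015 (3.57%) and below the axis at 1157 (4.07%). Within 4-fold of both embryo parts lay 20567 models (72.4%), and the median difference over all measured models was 0.30 on the log2 scale against the cotyledon and 0.22 against the axis.

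**Figure D1:**
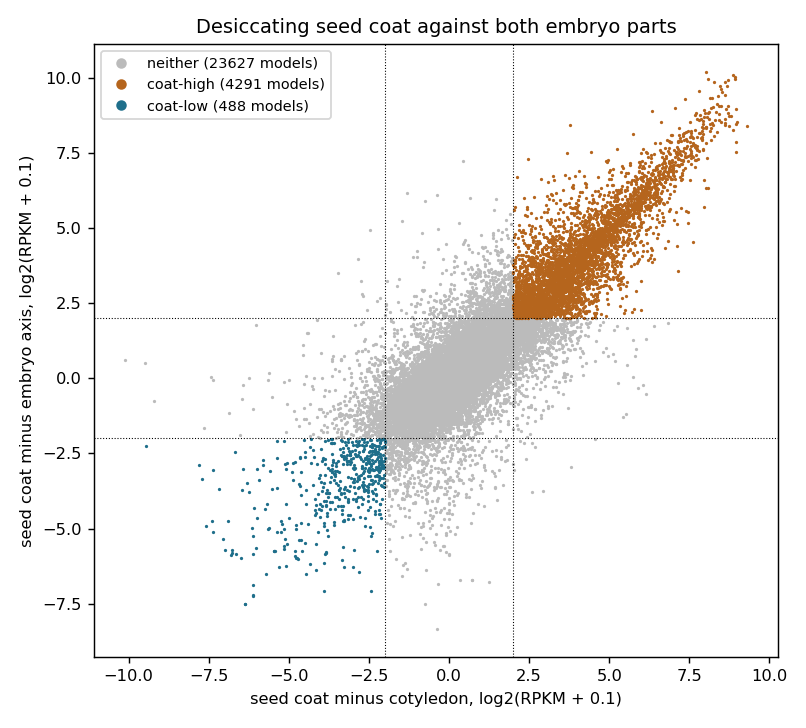
Each point is 1 of the 28406 measured models, placed by its seed coat level minus its cotyledon level (x axis) and minus its embryo axis level (y axis), both as differences of log2(RPKM + 0.1). Dotted lines mark 4-fold, and the 4291 coat-high models (upper right) reach beyond 7.5 in both directions far more densely than the 488 coat-low models (lower left).

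Coat-high models had a median coat level near that of all measured models, and most were nearly silent in the embryo. The 4-fold rule in part requires the latter. The median level of coat-high models was 4.41 RPKM in the coat, 0.109 in the cotyledon and 0.119 in the axis. Over all measured models these medians were 4.35, 2.95 and 3.1. Of the coat-high models 319 had no hit in either embryo part. At 20 RPKM or more in the coat there were 580 coat-high models of 3063 measured models at that level, at 100 RPKM 81 of 360, and at 1000 RPKM 7 of 20. The coat-high models together held 23.6% of the summed RPKM of the coat, against 1.07% in the cotyledon and 0.854% in the axis. The coat-low models held 3.50% of the cotyledon and 3.02% of the axis, against 0.265% in the coat. Their median level was 0.24 RPKM in the coat, 3.67 in the cotyledon and 4.22 in the axis, 13 had no hit in the coat, and 15 reached 100 RPKM in both embryo parts.

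The single models closest to the 4-fold limit had modest levels, but abundant models also came near it. Over the 81 coat-high models with at least 100 RPKM in the coat, the cotyledon reached 24.5% of the coat level and the axis 24.4%. Over the 15 coat-low models with at least 100 RPKM in both embryo parts, the coat reached 22.2% of the cotyledon and 22.7% of the axis. Glyma.06G302800, just inside as coat-high, had 15.04 RPKM in the coat, 3.68 in the cotyledon and 2.33 in the axis (differences of 2 and 2.64 on the log2 scale), and Glyma.08G204100, just outside, had 4.42, 1.03 and 0.805. Glyma.02G272600, just inside as coat-low, had 0.0317 RPKM in the coat, 1.06 in the cotyledon and 0.429 in the axis, and Glyma.15G140600, just outside, had 0.171, 1.09 and 0.983. These 4 were picked as the closest to the limit.

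The labels of the 3 tissues were checked against marker genes, matched to soybean models through their closest Arabidopsis gene and summed over the models of a match. The coat markers SEEDSTICK (STK) and SHATTERPROOF (SHP), MADS-box factors of ovule and seed coat identity, were far higher in the coat than in either embryo part. STK had 119 RPKM in the coat, 0.318 in the cotyledon and 0.116 in the axis, SHP1 had 113, 0.520 and 0.210, and SHP2 had 32.8, 0.939 and 0.683. The seed coat peroxidase Ep had 374, 0.860 and 0.301 RPKM. TT16, another ovule MADS factor, was near 0 in all 3 libraries (0.0233, 0 and 0 RPKM).

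Of the embryo markers, only ABI3 had measured models. ABI3, the seed maturation regulator of the abscisic acid pathway, had 51.4 RPKM in the coat, 119 in the cotyledon and 96.2 in the axis, so it was present in the coat as well. FUS3 and the LEC1-like factor L1L stayed under 1 RPKM in all 3, and LEC1 was at 0 in all 3. Markers of the root meristem were highest in the axis, but not all set it apart from the cotyledon. PLT1 had 0.0806 RPKM in the coat, 0.105 in the cotyledon and 8.44 in the axis. PLT2 had 4.35, 6.94 and 14.8. Its model Glyma.12G056300 was near 0 outside the axis (0.0475, 0.0628 and 6.95), while Glyma.18G148000 differed little between the 3 tissues (4.31, 6.88 and 7.88). SCARECROW had 0.0492, 1.71 and 4.12, and its 2 measured models were coat-low, so it set the coat apart from both embryo parts. STM, the shoot meristem factor, had 0.0725, 0 and 3.79 RPKM, and WOX5, of the root stem cell niche, had 0.0354, 0 and 1.09. Of the endosperm markers, AGL62 had 9.99 RPKM in the coat, 0 in the cotyledon and 0.0573 in the axis, while ZOU had 0, 0 and 0.0266. The AGL62 sum covered 33 models, of which 1 was measured, Glyma.02G179300 with 8.47 RPKM in the coat. That model had 0 RPKM in the Williams seed coats of 5–6 mg and 25–50 mg seed. Whether the desiccating coat held endosperm RNA was not tested. The vascular markers did not follow 1 tissue, since the phloem sucrose transporter SUC2 had 8.85, 9.47 and 7.28 RPKM and APL, a phloem identity factor, had 1.04, 6.71 and 2.53.

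Low levels of the strongest coat models were seen in both embryo libraries. Over the 81 coat-high models with at least 100 RPKM in the coat, the cotyledon held a median of 1.2% of the coat level (lowest 0.108%) and the axis 0.480% (lowest 0.0294%). In 32 of the 81 the cotyledon held under 0.5% of the coat level, and in 29 of these 32 it lay above the axis, with a median ratio of cotyledon to axis of 2.46. In the other direction, the cotyledon globulin Glyma.03G163500 had 0.683 RPKM in the coat, 866 in the cotyledon and 0.416 in the axis. Whether RNA passed between the dissected parts was not tested.

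Maternal identity factors had the highest share of coat-high members of the lists with more than 1 measured model. All 12 measured models of 14 in the list of ovule identity MADS factors were coat-high, with median differences of 6.36 against the cotyledon and 6.45 against the axis. Glyma.04G257100, an STK match, had 62.2 RPKM in the coat, 0.238 in the cotyledon and 0.0691 in the axis, a ratio to the cotyledon of 261 (95% interval 158 to 467) and to the axis of 900 (503 to 1800). Its second copy Glyma.06G324400 had 56.9, 0.0795 and 0.0472 RPKM, and Glyma.08G310100, a SHP1 match, had 67.9, 0.355 and 0.169. Both embryo parts were under 1 RPKM for each of these models, so they counted as measured through the coat alone. The minimum thus favours a high share in this list, and the same STK and SHP models served above to check the coat label. The identity factors were already high in young coats, since 12 of the 12 were higher in the 25–50 mg Williams coat (median 26.7 RPKM) than in the desiccating coat (median 14.7), and 0 of the 12 reached 1 RPKM in the dry coat.

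**Figure D2:**
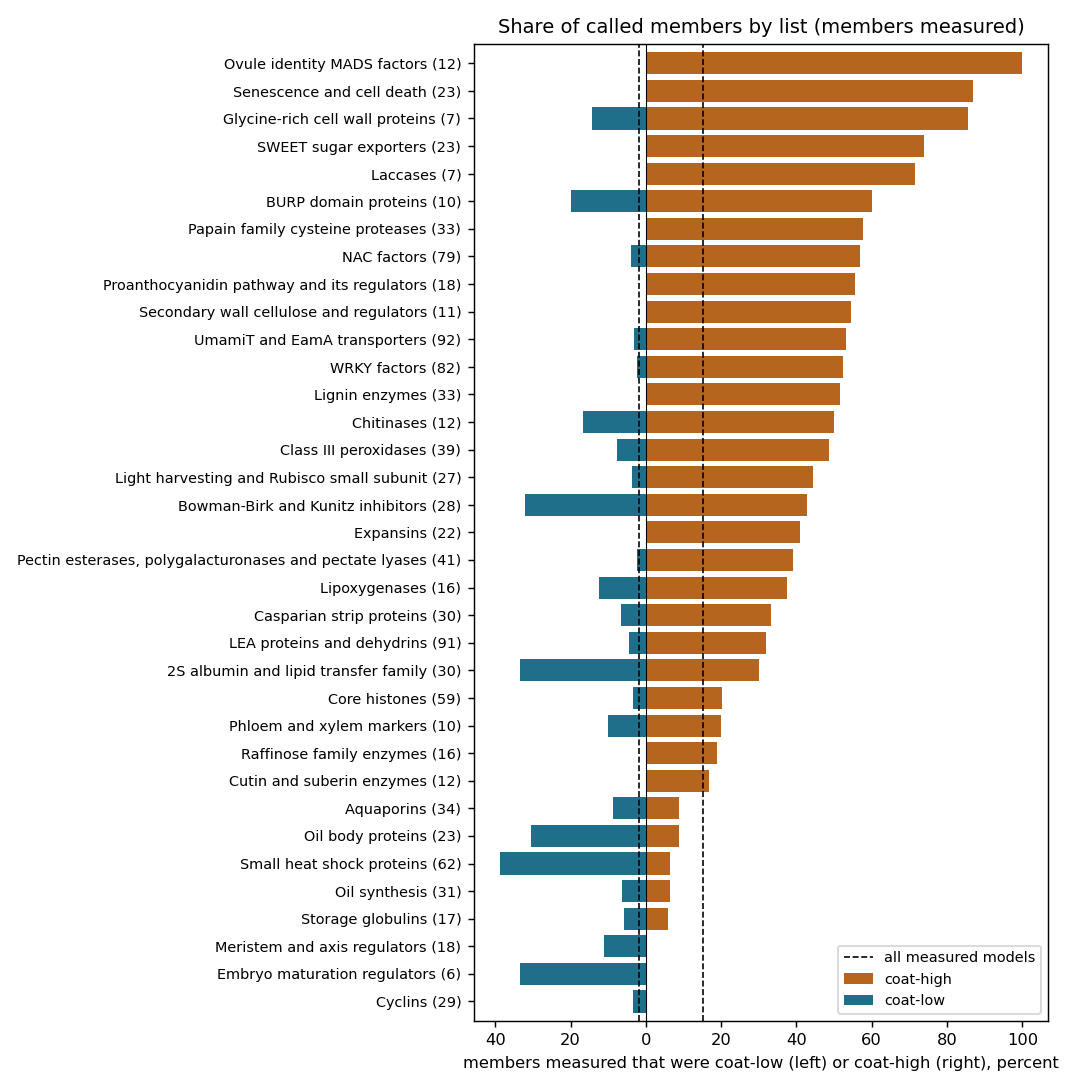
Bars give, for each list of gene models, the percent of its measured members that were coat-high (right, brown) or coat-low (left, blue), with the number measured in parentheses and dashed lines at 15.1% and 1.72%, the shares over all measured models. Ovule identity, senescence, glycine-rich, SWEET and laccase lists sit at the top, and small heat shock, embryo maturation and 2S albumin and lipid transfer lists have the longest coat-low bars.

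Transcripts of enzymes that make proanthocyanidin, a tannin of seed coats, were present in the desiccating coat of this cultivar, which is yellow with a black hilum. Of 18 measured models of 34 in the list, 10 were coat-high and 0 coat-low (medians 3.35 and 3.04). Anthocyanidin synthase (ANS), which makes the coloured anthocyanidins, had 93.5 RPKM in the coat, 0.117 in the cotyledon and 0.124 in the axis at Glyma.01G214200, 797 times the cotyledon (366 to 2170) and 756 times the axis (465 to 1320). Its copy Glyma.11G027700 had 90.0, 0.177 and 0.0934 RPKM. Dihydroflavonol reductase, the step before ANS, had 62.9, 0.334 and 0.0973 RPKM at Glyma.02G158700, and a match of TT10, the laccase that browns the coat in Arabidopsis, had 27.1, 0.139 and 0.0450 at Glyma.16G158400. Each of these models had fewer than 20 hits in each embryo library. WRKY44, the TTG2 match that acts in Arabidopsis coat pigment and mucilage, had 20.6 RPKM in the coat, 0.105 in the cotyledon and 0.104 in the axis at Glyma.19G177400. The coat-high pigment models were lower in the desiccating coat than before it, since 9 of the 10 were higher at 25–50 mg (medians 55.5 RPKM there, 12.5 in the desiccating coat and 0.0137 in the dry coat).

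Genes that build, loosen or break down cell walls were coat-high in several lists. Of 39 measured models with the plant peroxidase domain (208 in the list, which also takes in ascorbate peroxidases), 19 were coat-high and 3 coat-low. Class III peroxidases couple phenols into lignin and other wall polymers. Glyma.17G013600 had 759 RPKM in the coat, 10.3 in the cotyledon and 7.95 in the axis, 73.9 times the cotyledon (68.5 to 79.9) and 95.5 times the axis (90.5 to 101), and another, Glyma.07G260300, had 357, 10.1 and 7.79. Ep itself (Glyma.09G022300), the enzyme of the hourglass cells, was 435 times the cotyledon (323 to 601) and 1240 times the axis (906 to 1760). In the dry coat Glyma.17G013600 had 4.69 RPKM, Glyma.07G260300 12.3 and Glyma.09G022300 0.393, against 14.1, 11.1 and 0 in the dry cotyledon.

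Laccases, the copper oxidases that also polymerise lignin, were coat-high in 5 of 7 measured models, and enzymes of lignin synthesis in 17 of 33, with 0 coat-low in both lists. Phenylalanine ammonia-lyase PAL1 (Glyma.10G058200), the entry enzyme of the pathway, was not called and was lower in the coat, with 2.41 RPKM against 25.8 in the cotyledon and 9.04 in the axis. A caffeate O-methyltransferase match (OMT1, Glyma.19G260700) had 22.6 RPKM in the coat, 0.0369 in the cotyledon and 0.0365 in the axis, and cinnamate 4-hydroxylase (Glyma.02G236500), which feeds all phenylpropanoids, had 42.9, 4.69 and 4.52. Of 11 measured models for cellulose of secondary walls and its regulators 6 were coat-high, among them a CESA7 cellulose synthase match (Glyma.06G225500) with 7.58, 0.0635 and 0 RPKM and an IRX9 xylan match (Glyma.13G137600) with 13.7, 0.0950 and 0.158. Each of these 4 coat-high models was higher in the coat than in either embryo part by more than its counting interval. Pectin enzymes were coat-high in 16 of 41 measured models and coat-low in 1, and ADPG2 (Glyma.10G103200), a polygalacturonase of cell separation in Arabidopsis, had 29.8, 0.111 and 0.0504 RPKM. Expansins, which loosen walls, were coat-high in 9 of 22, and Glyma.02G109100 had 10.1 RPKM in the coat and no hits in cotyledon or axis.

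Proteins of the BURP domain, a plant family of the cell wall and apoplast, were coat-high in 6 and coat-low in 2 of 10 measured models. Glyma.08G230600 had 515 RPKM in the coat, 1.35 in the cotyledon and 0.551 in the axis, 382 times the cotyledon (295 to 505) and 933 times the axis (723 to 1230). Casparian strip membrane proteins and their kin, which guide local wall lignification, were coat-high in 10 and coat-low in 2 of 30, and Glyma.07G251300 had 272, 4.31 and 1.89 RPKM. In the dry coat Glyma.08G230600 fell short of 1 RPKM (0.936, and 0.0402 in the dry cotyledon), while Glyma.07G251300 kept 37.3 against 2.63 in the dry cotyledon. The cutin and suberin list stayed near the background, with 2 coat-high of 12 measured.

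The 7 coat-high models with at least 1000 RPKM in the coat were 1 defensin match, 4 glycine-rich proteins and 2 models without a domain or match. Glyma.13G278000, a plant defensin match (PDF2.4), had 9583 RPKM in the coat, 706 in the cotyledon and 27.9 in the axis, 13.6 times the cotyledon (13.4 to 13.8) and 343 times the axis (326 to 360). Defensins are small cysteine-rich peptides that act on fungi. This model was coat-high although the cotyledon level was itself far above most transcripts, and it stood at 9932 RPKM in the dry coat and 646 in the dry cotyledon.

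Glycine-rich wall proteins, repetitive structural proteins, came next. Of 7 measured models of 19, 6 were coat-high and 1 coat-low, and the list held 4.43% of the summed RPKM of the coat, 0.0620% of the cotyledon and 0.0420% of the axis. Glyma.20G011400 had 8337 RPKM in the coat, 27.6 in the cotyledon and 16 in the axis, 302 times the cotyledon (280 to 327) and 521 times the axis (489 to 556). Its neighbours on the chromosome Glyma.20G011300 and Glyma.20G011500 had 3946 and 1227 RPKM in the coat and under 15 in both embryo parts. Glyma.07G176000 had 2537 RPKM in the coat, 4.94 in the cotyledon and 6.83 in the axis. These 4 were higher still in the dry coat, at 14440, 4884, 2460 and 7206 RPKM in the order Glyma.20G011400, Glyma.20G011300, Glyma.20G011500 and Glyma.07G176000. Copies of such repeats can share reads, because a read was allowed up to 25 alignments, so the split between copies is uncertain.

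Chitinases, which cut the chitin of fungal walls, were coat-high in 6 and coat-low in 2 of 12 measured models. The basic chitinase Glyma.02G042500 had 875 RPKM in the coat, 1.78 in the cotyledon and 0.705 in the axis, 491 times the cotyledon (394 to 619) and 1240 times the axis (997 to 1560). It was higher in the dry coat (1356 RPKM against 0.918 in the dry cotyledon). Among models without a domain or Arabidopsis match, of which 244 were coat-high and 42 coat-low of 1334 measured, Glyma.14G052900 had 1900 RPKM in the coat, 7.17 in the cotyledon and 1.52 in the axis and Glyma.02G258500 had 1208, 2.86 and 1.32.

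**Figure D3:**
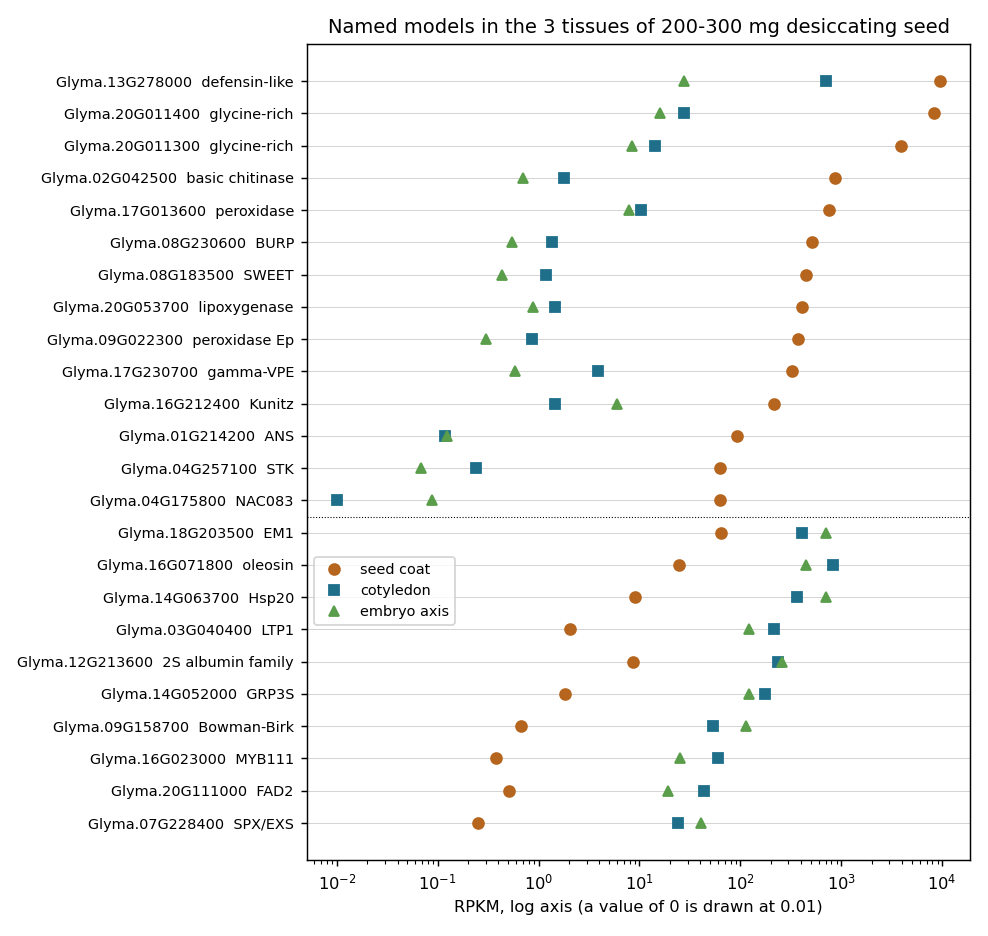
RPKM on a log axis for 14 coat-high models (above the dotted line) and 10 coat-low models (below it) in the seed coat (circle), cotyledon (square) and embryo axis (triangle) of desiccating seed, each point 1 library. The coat point lies to the right of both embryo points in each of the upper models and to the left of both in each of the lower models, and the cotyledon value of 0 of Glyma.04G175800 is drawn at 0.01.

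Protease inhibitors split by family. Of 28 measured models of 63 in the joint list of Bowman-Birk and Kunitz inhibitors, 12 were coat-high and 9 coat-low. Read by domain, a division made after the values were seen, Kunitz inhibitors were coat-high in 11 and coat-low in 1 of 18 (medians 4.07 and 5.14), and Bowman-Birk inhibitors were coat-high in 1 and coat-low in 8 of 10 (medians −6.25 and −5.85). Both families block digestive serine proteases and are known from soybean seed. The Kunitz model Glyma.16G212400 had 214 RPKM in the coat, 1.45 in the cotyledon and 6.05 in the axis, 148 times the cotyledon (112 to 199) and 35.3 times the axis (32.4 to 38.6), and Glyma.08G235400 (KTI1 match) had 125.5, 0.327 and 0.249. The Bowman-Birk model Glyma.09G158700 had 0.669 RPKM in the coat, 53.8 in the cotyledon and 115 in the axis, so the cotyledon was 80.5 times the coat (58.3 to 114) and the axis 172 times (125 to 243). The coat was thus above both embryo parts at these Kunitz models and below both at this Bowman-Birk model, with 1 library per tissue. Glyma.09G158800 and Glyma.14G117600 had the same values in all 12 libraries (0.493, 48.8 and 106.9 RPKM here) and are not separate measurements, although both are in the counts (the 488 coat-low models held 487 distinct sets of values). In the dry coat the Kunitz models were still high, at 377 RPKM for Glyma.16G212400 and 376 for Glyma.08G235400, and 10 of the 12 coat-high inhibitors were 4-fold above the dry cotyledon.

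Proteases and genes of senescence were called in the coat-high direction alone. Papain family cysteine proteases were coat-high in 19 and coat-low in 0 of 33 measured models (medians 4.16 and 3.68). An RD21 match (Glyma.17G239000) had 116 RPKM in the coat, 0.993 in the cotyledon and 0.472 in the axis, and an RD19 match (Glyma.14G216300) had 296, 16.5 and 7.69. The group was not coat-high as a sum, since it held 0.848% of the summed RPKM of the coat, 2.45% of the cotyledon and 0.752% of the axis. Glyma.10G207100 alone had 1098, 5813 and 1673 RPKM and was not called.

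In the senescence and cell death list 20 of 23 measured models were coat-high and 0 coat-low (medians 4.96 and 4.63). Gamma vacuolar processing enzyme, a protease of vacuolar maturation and cell death, had 327 RPKM in the coat, 3.93 in the cotyledon and 0.588 in the axis at Glyma.17G230700, 83.4 times the cotyledon (74.8 to 93.3) and 556 times the axis (466 to 670). Its copy Glyma.14G092800 had 307, 2.22 and 0.497 RPKM. SAG12 (Glyma.11G144900), the cysteine protease used as a marker of leaf senescence in Arabidopsis, had 15.7 RPKM in the coat from 2331 hits and 1 hit in each embryo library. BFN1 (Glyma.15G068600), a nuclease of Arabidopsis cell death, had 16.6 RPKM from 2545 hits and likewise 1 hit in each. NAP, the NAC factor that promotes leaf senescence in Arabidopsis, had 47.4, 2.21 and 0.709 RPKM at Glyma.02G109800, a model chosen after its values were seen. In SAG12 and BFN1 the coat exceeded both embryo parts beyond counting error, though a ratio over 1 hit has a wide interval (144 to 31700 for SAG12 against the cotyledon).

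SWEET sugar exporters, which release sucrose from the coat to the embryo, were coat-high in 17 and coat-low in 0 of 23 measured models (medians 5.19 and 5.24). Glyma.08G183500 had 452 RPKM in the coat, 1.18 in the cotyledon and 0.434 in the axis, 382 times the cotyledon (293 to 508) and 1040 times the axis (790 to 1400), and Glyma.15G049200 had 165, 0.438 and 0.0780. The exception in level was Glyma.14G120300 with 7.34 RPKM in the coat, 40.1 in the cotyledon and 14.1 in the axis, which was not called. Glyma.08G183500 had 522 RPKM in the 25–50 mg coat and 0.163 in the dry coat. The EamA transporters, a family that holds the UmamiT amino acid exporters, were coat-high in 49 and coat-low in 3 of 92, with 50.0, 0.126 and 0.0750 RPKM at Glyma.03G122200.

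Of the NAC transcription factors 45 of 79 measured models were coat-high and 3 coat-low (medians 3.40 and 3.51). Glyma.04G175800, a NAC083 (VNI2) match and in Arabidopsis a regulator of xylem vessels and leaf ageing, had 63.1 RPKM in the coat, no hit in the cotyledon and 0.0872 RPKM in the axis, at least 191 times the cotyledon at a floor of 3 hits. Of the WRKY factors 43 of 82 were coat-high and 2 coat-low (medians 2.49 and 2.87). The most abundant NAC models were shared, with Glyma.06G114000 at 197 RPKM in the coat, 378 in the cotyledon and 208 in the axis. Lipoxygenases split by model: LOX2-like Glyma.20G053700, of the jasmonate branch in Arabidopsis, had 410 RPKM in the coat, 1.44 in the cotyledon and 0.883 in the axis, and LOX1-like Glyma.15G026300, not called, had 346.5, 2733 and 900. In that list 6 of 16 measured models were coat-high and 2 coat-low.

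Small heat shock proteins gave more coat-low models than any other list. Of 62 measured models of 84, 24 were coat-low and 4 coat-high, with medians of −1.62 against the cotyledon and −2.68 against the axis. These chaperones hold unfolding proteins and accumulate in drying embryos. Glyma.14G063700 had 9.01 RPKM in the coat, 362 in the cotyledon and 707 in the axis, so the cotyledon was 40.2 times the coat (37.3 to 43.4) and the axis 78.5 times (72.9 to 84.6). The plastid protein HSP21 (Glyma.04G229800) had 1.83, 54.0 and 115 RPKM. This group depended on the axis library. With the axis of 300–400 mg seed in place of that of 200–300 mg, only 6 members were coat-low. The median against that axis was −0.10, and Glyma.14G063700 had 324 RPKM in it.

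Oil bodies, the droplets of storage oil, were marked by oleosins on the embryo side. In the oil body list 7 of 23 measured models were coat-low and 2 coat-high (medians −1.88 and −1.83). The oleosin Glyma.16G071800 had 24.7 RPKM in the coat, 836 in the cotyledon and 449 in the axis, with the cotyledon 33.8 times the coat (32.6 to 35.1) and the axis 18.2 times (17.5 to 18.9). By domain, again a division made afterwards, oleosins were coat-low in 6 and coat-high in 0 of 13, and caleosins, calcium-binding proteins of the same droplets, were coat-high in 2 and coat-low in 0 of 8. The caleosin Glyma.09G123800 had 507 RPKM in the coat, 47.9 in the cotyledon and 11.2 in the axis, whereas the most abundant caleosin, Glyma.10G189900, was not called and had 714, 1677 and 769. In the oil synthesis list 2 models were coat-high and 2 coat-low of 31. The coat-low FAD2 desaturase Glyma.20G111000, which makes linoleate, had 0.514, 43.4 and 19.3 RPKM, while another FAD2 match, Glyma.09G111900, had 14.1, 0.0155 and 0.0184.

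Lipid transfer proteins and 2S albumins, small cysteine-rich proteins of 1 domain family, were coat-low in 10 and coat-high in 9 of 30 measured models. On the embryo side, LTP1 (Glyma.03G040400) had 2.05 RPKM in the coat, 215 in the cotyledon and 123 in the axis, with 95% intervals of 90.8 to 122 times the coat for the cotyledon and 51.9 to 69.7 for the axis. Glyma.12G213600 of the same family had 8.58, 236 and 256 RPKM. On the coat side, Glyma.15G119800 had 39.4 RPKM and no hit in either embryo part, at least 183 times the cotyledon and at least 463 times the axis at the floor of 3 hits. The family therefore held models at both extremes.

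Storage globulins were not coat-low as a group. Of 17 measured models of 22 only 1 was coat-low and 1 coat-high, and the median was −3.39 against the cotyledon but 0.50 against the axis, so the typical globulin stood out in the cotyledon and not in the axis. With the axis of 300–400 mg seed the median against the axis was −1.08 and 3 models were coat-low. The coat-low model Glyma.10G037100 had 0.236 RPKM in the coat, 235.5 in the cotyledon and 1.50 in the axis. The coat-high model was a CRU3 match, Glyma.19G164800, with 34.2, 0.701 and 0.168 RPKM.

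LEA proteins and dehydrins, desiccation protectants of the embryo, were split as well. Of 91 measured models of 150, 29 were coat-high and 4 coat-low (medians 0.42 and 0.46), yet the list held 4.16% of the summed RPKM of the coat, 8.47% of the cotyledon and 7.69% of the axis. Split by domain after the values were seen, the LEA-2 domain, which the NHL proteins of plant defence also carry, took 26 of the 29 coat-high models (26 of 55 measured, medians 2.13 and 2.29), and the remaining LEA proteins and dehydrins were coat-high in 3 and coat-low in 2 of 36 (medians −0.97 and −0.66). An LEA-2 model, the NHL10 match Glyma.03G201300, had 53.7 RPKM in the coat, 0.527 in the cotyledon and 0.137 in the axis. Among the coat-low members was the classical embryo protein EM1 (Glyma.18G203500), which had 63.8, 413 and 699 RPKM, with the cotyledon 6.47 times the coat (6.27 to 6.68) and the axis 11 times (10.7 to 11.3). The coat itself was rich in other LEA transcripts, with 3048 RPKM at Glyma.09G185500 against 4050 in the cotyledon and 1649 in the axis, and 1437 at Glyma.03G144400 against 3572 and 2449.

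Regulators of embryo maturation were present at lower levels in the coat. Of 6 measured models 2 were coat-low and 0 coat-high, both matches of ABI4, an abscisic acid response factor. Glyma.14G057900 had 0.0582 RPKM in the coat, 8.23 in the cotyledon and 14.1 in the axis. ABI3 and ABI5, by contrast, lay within 4-fold of both embryo parts, with 29.8, 72.2 and 59.2 RPKM for ABI3 (Glyma.18G176100) and 29.0, 33.9 and 36.2 for ABI5 (Glyma.10G071700). Other coat-low models with large differences were a MYB111 match (Glyma.16G023000), in Arabidopsis an activator of flavonol synthesis, with 0.379, 60.5 and 25.2 RPKM, the glycine-rich GRP3S (Glyma.14G052000) with 1.82, 174 and 121.5, and Glyma.07G228400, with the SPX and EXS domains of phosphate export proteins, with 0.25, 24.3 and 40.9.

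Other lists are read here against the background of 15.1% coat-high and 1.72% coat-low models, with medians of 0.30 and 0.22. Some of them held few measured members. Raffinose family enzymes, which make the sugars of dry seed, were coat-high in 3 of 16 and coat-low in 0, and galactinol synthase GolS1 (Glyma.03G222000) had 345 RPKM in the coat, 499 in the cotyledon and 375 in the axis. Core histones were coat-high in 12 and coat-low in 2 of 59 (medians 1.83 and 1.2), and cyclins in 0 and 1 of 29. Aquaporins were coat-high in 3 (8.82%) and coat-low in 3 (8.82%) of 34. Phloem and xylem markers were coat-high in 2 and coat-low in 1 of 10. Meristem and axis regulators were coat-high in 0 and coat-low in 2 of 18, both SCARECROW matches. The list had a median of −3.60 against the axis and −0.12 against the cotyledon, so at the median it set the axis apart and not the coat. The endosperm list had 1 measured model of 38, the AGL62 match Glyma.02G179300, with 8.47 RPKM in the coat, no hit in either embryo part and 3.47 RPKM in the dry coat. It had 0 RPKM in the Williams coats of 5–6 mg and 25–50 mg seed. Light harvesting proteins and the small subunit of Rubisco were coat-high in 12 and coat-low in 1 of 27 (medians 2.39 and 3.19), at modest levels such as the 17.6, 3.12 and 0.759 RPKM of the photosystem I antenna LHCA3 (Glyma.14G003400).

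The models called in desiccating seed were then read in libraries that did not choose them. Between dry coat and dry cotyledon 20916 of the measured models could be compared, of which 4.09% were 4-fold above in the coat and 9.47% below, with a median difference of −0.55. The minimum of 1 RPKM applied again in that pair, and it removed 3055 of the 4291 coat-high models. Of the 1236 left, most of which passed through the dry coat, 589 were above and 51 below, which is 13.7% and 1.19% of all coat-high models, against 3.01% and 6.97% of all 28406 measured models. Of the 488 coat-low models 369 could be compared, and 322 were below and 0 above, which is 66.0% of all coat-low models.

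In seed of 5–6 mg neither tissue had matured. Of 20901 models compared there, 5.76% were above in the coat and 12.8% below (median −0.98). Coat-high models were above in 711 of the 2348 compared and below in 204, which is 16.6% and 4.75% of all coat-high models, against 4.24% and 9.40% of all measured models. Coat-low models were below in 128 of 239 and above in 17, which is 26.2% and 3.48% of all coat-low models. These 2 pairs carry a group of 144 unannotated models of chromosome 13 that took 47.6% of the summed RPKM of the dry coat against 19.8% of the dry cotyledon, and 75.6% of the 5–6 mg coat against 53.9% of its cotyledon, beside 7.69%, 7.79% and 16.1% in coat, cotyledon and axis of desiccating seed. With these models out of the denominator, a choice made after seeing the data, the coat-high models were above in 734 (17.1% of all of them, against 4.04% of all measured models) in dry seed and in 1149 (26.8%, against 7.91%) in 5–6 mg seed, and the coat-low models below in 299 (61.3%, against 5.31%) and 117 (24.0%, against 4.07%). The medians of all models were then −0.18 and −0.21.

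**Figure D4:**
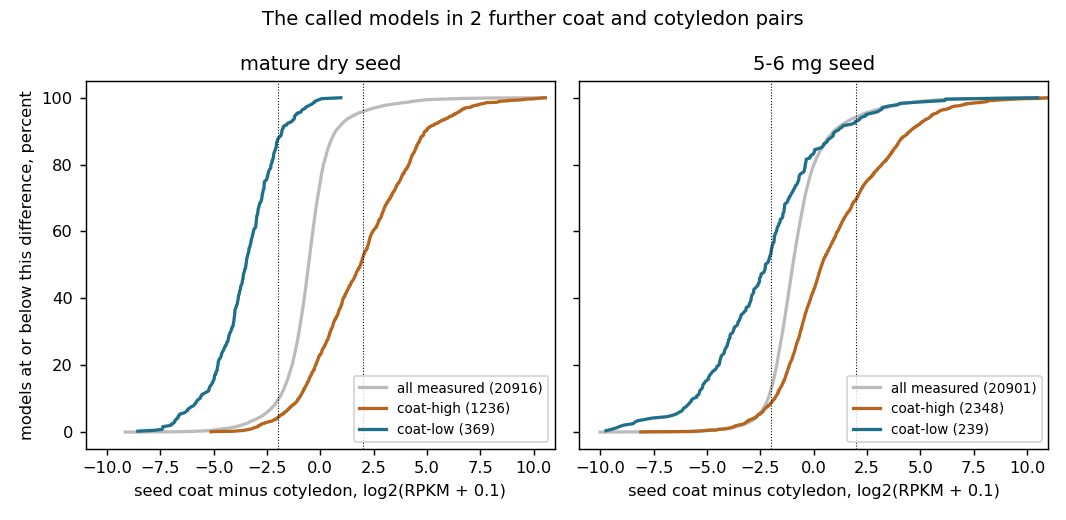
Cumulative percent of models (y axis) at or below a given seed coat minus cotyledon difference in log2(RPKM + 0.1) (x axis), in mature dry seed (left) and in 5–6 mg seed (right), for all measured models (grey), coat-high models (brown) and coat-low models (blue) of desiccating seed. The brown curve lies to the right of the grey and the blue to the left in both panels over most of the range, with medians of 1.89, −0.55 and −3.48 in dry seed and 0.38, −0.98 and −2.26 in 5–6 mg seed. Only models with at least 1 RPKM in a tissue of the pair are drawn. These were 1236 (left) and 2348 (right) of the 4291 coat-high models. Of the 4291, 1109 and 2067 reached that level in the coat of the pair, so the minimum favours the coat.

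The coat-high models were detected less widely than measured models as a whole, in seed and outside it. The choice of models favours this, since few of them reached 1 RPKM in the embryo. In cotyledon and axis of desiccating seed 15.9% and 15.1% did, against 74.1% and 77.8% of all measured models. Of the 4291, 25.8% had at least 1 RPKM in the dry coat, 48.2% in the 5–6 mg coat, 74.6% in the 25–50 mg Williams coat and 71.8% in that of W55, against 61.2%, 56.6%, 85.1% and 83.8% of all measured models. Scaled without those chromosome 13 models, the shares in the dry coat were 30.2% against 67.2%, and in the 5–6 mg coat 64.4% against 76.5%. In root 72.4% reached 1 RPKM and in leaf 56.6%, against 84.6% and 81.8% of all measured models, and 933 were under 1 RPKM in both. The highest of the Williams libraries was the desiccating coat for 1523 (35.5%), a share that the choice of models raises, the root for 1073 (25.0%, against 15.4% of all measured models) and the 25–50 mg coat for 999 (23.3%, against 15.5%).

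The groups differed in how they ended. Glycine-rich proteins, inhibitors and the basic chitinase stayed or were higher in the dry coat: 5 of the 6 coat-high glycine-rich models and 8 of the 12 coat-high inhibitors had more RPKM there, with medians of 3670 in the dry against 1880 in the desiccating coat for the former and 53.7 against 29.8 for the latter. Both groups were near 0 in the 25–50 mg coat, with medians of 0.195 and 0.196 RPKM. Over all coat-high models 5.87% had more RPKM in the dry coat than in the desiccating coat and 25.8% reached 1 RPKM there. Of the coat-high pigment models 0 of 10 reached 1 RPKM in the dry coat, while peroxidases (6 of 19) and SWEET models (5 of 17) were close to the share of all coat-high models, and senescence (9 of 20) and NAC models (19 of 45) were above it. On the coat-low side, 21 of the 24 small heat shock models had more RPKM in the dry than in the desiccating coat, against 34.8% of all coat-low models. Those 24 calls rest on the axis of 200–300 mg seed, and the dry coat values are lowered by the chromosome 13 models, whose removal raises them 1.4 times.

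**Figure D5:**
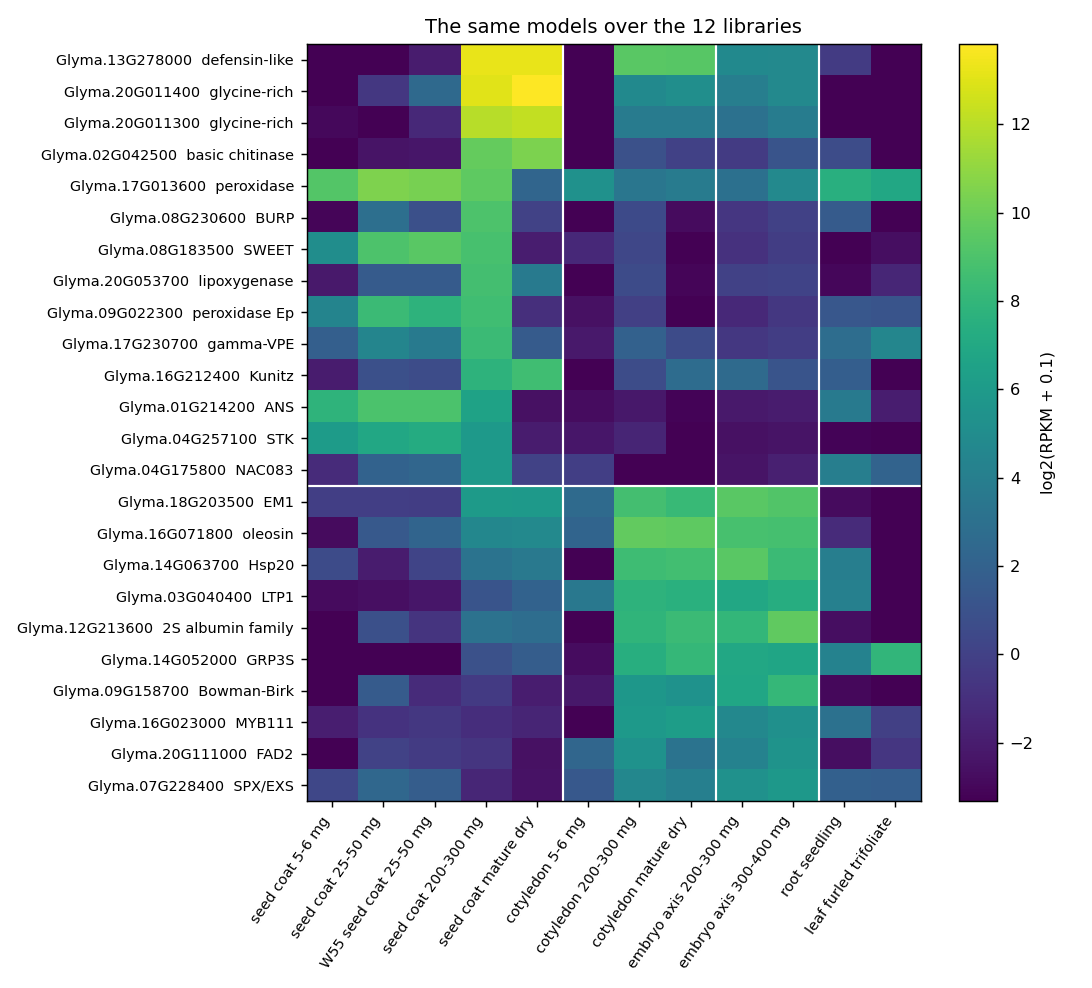
Heat map of log2(RPKM + 0.1) for the 24 models of the plot of RPKM by tissue (rows; coat-high above the white line, coat-low below it) in the 12 libraries (columns; seed coats by stage, cotyledons, embryo axes, root and leaf). The defensin, glycine-rich, chitinase and Kunitz rows are brightest in the desiccating and dry coats, the ANS and STK rows in the 25–50 mg coats, and most coat-low rows in the desiccating and dry embryo parts.

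Called models lay side by side on the chromosomes more often than the background. Of 4259 coat-high models placed on chromosomes, 1081 (25.4%) had a coat-high model next to them in the numbering of models, against 15.3% of all measured models with such a neighbour, and for coat-low models the numbers were 42 of 484 (8.68%) against 1.75%. The runs given here are named by their length, after the values were seen. The longest run of coat-high models was 13 models of WD repeats from Glyma.15G174300 to Glyma.15G175500, with 14.1 to 20.1 RPKM in the coat and at most 2.23 in the cotyledon and 3.45 in the axis. The longest coat-low run was the 5 Bowman-Birk models Glyma.09G158500 to Glyma.09G158900, with 0.247 to 0.669 RPKM in the coat and up to 53.8 in the cotyledon and 115 in the axis. Neighbours can be near-identical copies that share reads, so runs of such models may count the same reads more than once.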

How the data were processed

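RNA was extracted from freeze-dried tissue and sequenced as single reads on Illumina instruments, with the same read length for the 3 libraries compared. The authors mapped reads to Glyma model transcripts (Wm82.a2) with Bowtie. Up to 3 mismatches were tolerated, and a read was kept at as many as 25 places. RPKM was deposited for 56044 models, each by its first splice variant, beside its Pfam domain and closest Arabidopsis match. Strand was not kept, so overlapping antisense models cannot be told apart.

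Hits were recovered from the RPKM values as whole numbers (tolerance 0.001) with the lengths of 48 listed models, and lengths were found for 54020 models. The totals were 112.8 M alignments for the seed coat, 38.8 M for the cotyledon and 98.0 M for the embryo axis (14.7 M to 187.5 M over the 12 libraries), so the cotyledon has the widest intervals. Ratios of RPKM were given exact Clopper-Pearson 95% intervals from the hits, which cover counting error only, since reads were shared between models. A library without hits gave a bound at 3 hits.

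Members and lists (37, of which 1 had no model) were chosen with earlier results of these data known. Models named are, by rule, the 12 with the largest smaller difference at 20 RPKM or more and the 5 highest in each direction, and for each list the 3 highest and up to 3 called members in each direction. Others are said to be chosen after their values were seen. Alternatives were the pseudocount, the minimum, the scaling, the fold limit and the axis library. Python 3.11.15, numpy 2.4.6, pandas 2.3.3, scipy 1.17.1 and matplotlib 3.10.9 were used, and the scripts were tested on simulated data.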

Additional observations from a re-analysis of the deposited data

Results flagged for a closer look

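Among the models picked by the rule for naming, 7 moved in opposite directions in desiccating seed and in 5–6 mg seed, each by at least 4-fold, with 1 library per tissue and stage. The difference between the stages was not tested. Scaled without the unannotated models of chromosome 13, which raises the 5–6 mg coat 2.4 times and its cotyledon 1.46 times, Glyma.04G167900 (−1.62) and Glyma.06G194900 (−1.46) fall within 4-fold, and the other 5 stay past it. The seed coat minus cotyledon differences in 5–6 mg seed, in log2(RPKM + 0.1), are given with the levels there.

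Of the coat-high models, 5 were lower in the young coat than in the young cotyledon. The photosystem I antenna models were LHCA3 (Glyma.14G003400) at −2.93, with 12.96 RPKM in the coat and 99.2 in the cotyledon, and the LHCA4 matches Glyma.04G167900 at −2.33 (9.85 and 49.7 RPKM) and Glyma.06G194900 at −2.16 (12.9 and 58.3 RPKM). The EamA transporter models were Glyma.03G229700 at −4.50 (2.36 and 55.4 RPKM) and Glyma.10G044800 at −2.82 (0.591 and 4.79 RPKM). All 5 had at least a 4-fold higher level in the desiccating coat than in its cotyledon.

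Of the coat-low models, 2 were higher in the young coat. The unannotated Glyma.10G214500 stood at 10.49, with 3489 RPKM in the 5–6 mg coat and 2.32 in its cotyledon, against 4.37 RPKM in the desiccating coat, 1004 in its cotyledon and 33.0 in its axis. The small heat shock model Glyma.14G063700 stood at 3.92, with 1.41 RPKM in the young coat and no hit in the young cotyledon.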

How the results depend on the processing

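No paired analysis was possible because each tissue is 1 library and no result comes from a test. Against 4291 coat-high and 488 coat-low models, a pseudocount of 1 RPKM left 1980 and 152, a minimum of 5 RPKM left 1981 and 261, a limit of 2-fold gave 7088 and 2031 and of 8-fold 2813 and 182, with coat-high shares of the calls of 77.7% at 2-fold and 93.9% at 8-fold. Chosen after seeing the data, a minimum of 1 RPKM in each of the 3 libraries left 513 and 126, and the axis alone or the cotyledon alone gave 1157 and 1015 coat-low models. A pseudocount of 0.01, no minimum, both rescalings, the axis of 300–400 mg seed and calls by the counting interval kept both counts within 1.5 times. With the axis of 300–400 mg seed they were 4229 and 468, of which 4010 coat-high and 404 coat-low models were the same. Without the unannotated chromosome 13 models in the denominator, 1149 rather than 711 coat-high models were 4-fold above in the coat of 5–6 mg seed. For the medians of lists, a turn of sign was counted only where the main median was at least 2 in size. By that rule 1 turned (BURP domain against the cotyledon, −1.60 at a minimum of 5 RPKM). Of the rest, 116 moved by 1 or more on the log2 scale and 457 by less. Smaller medians that changed sign are among these, such as storage globulins against the axis. The phloem and xylem medians had no value at the minimum of 5 RPKM. Over all settings 85 counts by list moved by more than 1.5 times and 491 did not, and a named model lost its call in 125 cases and kept it in 1625. The cause of these shifts was not tested. The cotyledon, the shallowest of the 3, limits the ratios of models with few hits, such as 1 hit of SAG12.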

Other observations

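Pfam domains picked after their values were seen showed where further coat-high and coat-low models lay. The domains compared had at least 20 measured models each, and list domains such as those of small heat shock proteins and WRKY factors were not among them. Over all measured models 15.1% were coat-high and 1.72% coat-low. Of the domains compared, the highest share was that of the replication factor-A C-terminal domain, with 17 of 20 measured models coat-high (85.0%). Of 39 measured models with the SRF-type DNA-binding domain of MADS factors, which include the ovule identity list, 33 were coat-high (84.6%, medians 5.17 and 5.33). Serine carboxypeptidases were coat-high in 19 of 26 (73.1%), and glycosyl hydrolases of family GH16, which holds the enzymes that remodel wall xyloglucan, in 30 of 44 (68.2%). Models with the NB-ARC domain of disease resistance proteins were coat-high in 48 of 114 (42.1%), and thaumatins in 12 of 20 with 2 coat-low. On the other side, the WRC domain of growth-regulating factors was coat-low in 6 of 24 (25.0%). Domains without a coat-high model included importin-beta (0 of 22) and Snf7 (0 of 20).

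Further runs of coat-high neighbours were 8 models from Glyma.09G141100 to Glyma.09G141800, of which 7 carry an F-box, with 4.64 to 6.19 RPKM in the coat and no hit in the cotyledon, and 4 thaumatins from Glyma.10G060800 to Glyma.10G061100 with 2.74 to 42.0 RPKM. In all, 385 runs of coat-high models held 2 models, 67 held 3 and 15 held 4.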
